A study of Caenorhabditis elegans with 6 samples.

Results

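The hedgehog-related and patched-related genes of the nematode Caenorhabditis elegans were examined in RNA from whole larvae with and without induction of the transcription factor gene lin-29. They were chosen by name, as all genes called grl (ground-like), grd (groundhog), wrt (warthog), hog, ptr (patched-related) or ptc (patched) with a number, plus qua-1 (quahog). The rule found 82 of the 41573 gene names in the tables, 56 ligand-like genes (30 grl, 14 grd, 10 wrt, hog-1 and qua-1) and 26 receptor-like genes (23 ptr and 3 ptc).

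Nematodes have no clear counterparts of Hedgehog or of its signal transducer Smoothened, yet their genomes carry large families of relatives. HOG-1, QUA-1 and some of the wrt and grd products carry the self-cleaving Hog domain of Hedgehog proteins, whereas other wrt and grd products and the grl products lack it. The ptc and ptr products are membrane proteins with a sterol-sensing domain, related to the Hedgehog receptor Patched. In worms these families are known for roles in the skin, its molting, the extracellular matrix and glia, and many members are expressed in epidermal cells.

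There were 3 libraries of the strain hs::lin-29, in which heat is meant to induce lin-29, and 3 of the strain hs::control. Animals of both strains were synchronized at the L1 stage, fed Escherichia coli OP50 at 20 °C, exposed in the L3 stage at 28 h of feeding to 37 °C for 30 min, and collected after 1 h of recovery. The promoter behind hs, the contents of the control transgene and the number of lines are not stated in the labels, and both strains were heat-shocked, so the heat shock itself is not part of the comparison. The replicates are called trials, with no statement that they were separate cultures, so the p-values rest on a spread between libraries that may be technical.

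Each library held 14553652 to 17303509 counts in genes. Levels are given in CPM, counts relative to the library total scaled by TMM, a correction for library composition. lin-29, the check of the labels, had levels of 131, 517 and 339 CPM in hs::lin-29 (replicates 1, 2 and 3 in order, as in every such list), against 49.8, 43.8 and 45.8 CPM in hs::control. It rose by a log2 fold change of 2.82 (standard error, SE, 0.41, edgeR adjusted p 0.004621), and its adjusted p was 0.1017 with no filter on low counts (8.161e-06 to 0.1017 across 16 alternative settings). On the second principal component hs::control replicate 1 stood apart, at -45.7, where replicates 2 and 3 of that strain had 21.4 and 17.7.

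Few of these genes differed between the strains. In the ligand-like families 3 genes, 1 each of grl, grd and wrt, rose in hs::lin-29: grl-14 7.59-fold, grd-11 4.80-fold and wrt-6 2.67-fold. One ligand-like gene, grl-21, fell 1.70-fold, and 1 receptor-like gene, ptr-15, fell 1.55-fold. Of the 82 genes 66 passed the filter on low counts and were tested, 43 ligand-like and 23 receptor-like. The other 61 tested genes did not pass the test (edgeR quasi-likelihood, adjusted over all 13045 genes, threshold 0.05), 39 of them ligand-like and 22 receptor-like. The RNA came from whole larvae, so fewer cells of a type and less RNA per cell cannot be told apart.

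The share of all tested genes past that threshold was 6.60%, with 2.46% higher and 4.14% lower in hs::lin-29. Among the 66 genes it was 7.58%, near that background. In all genes the count was 861, and it was 547 with hs::lin-29 replicate 3 left out, and 490 and 459 with hs::control replicate 2 or 3 left out. The median log2 fold change was 0.08 over the ligand-like genes and -0.16 over the receptor-like genes, against 0.01 over all genes tested. Of the receptor-like genes 17 of 23 (73.9%) lay below 0, against 16 of 43 (37.2%) of the ligand-like genes and 48.6% of all genes, and these shares are given as a description with no test. Most values were small, with 57 of the 66 (86.4%) within 1.5-fold, a share close to the 86.7% of all tested genes.

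**Figure D1:**
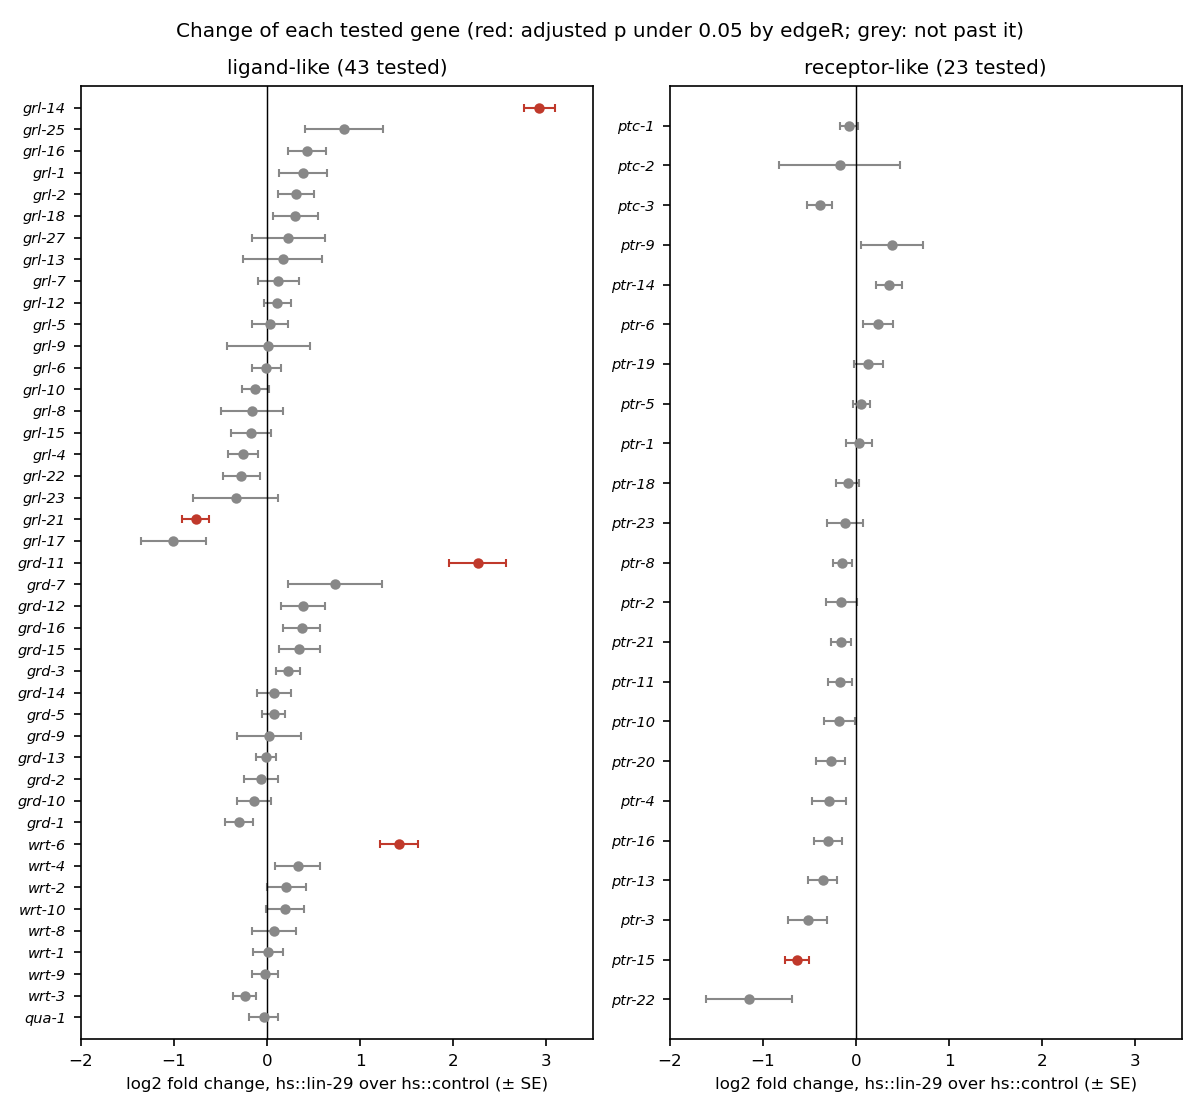
Log2 fold change of hs::lin-29 over hs::control for each of the 66 tested genes (x axis), by subfamily (y axis), with its SE; red points passed an adjusted p of 0.05 by edgeR. The red points are grl-14, grd-11 and wrt-6 to the right and grl-21 and ptr-15 to the left, while most receptor-like points lie slightly left of 0.

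The largest change was that of grl-14, a ground-like gene. It stood at 64.6, 75.2 and 93.8 CPM in hs::lin-29, against 9.12, 9.60 and 11.98 CPM in hs::control. The strains lay far apart, with the lowest hs::lin-29 library well above the highest hs::control library. The means were 77.9 ± 14.8 CPM in hs::lin-29 and 10.2 ± 1.54 CPM in hs::control (SD, n = 3 each), a log2 fold change of 2.92 (SE 0.17, edgeR adjusted p 3.94e-05). The library with the least lin-29, hs::lin-29 replicate 1, also had the least grl-14 of its strain. The order of the other libraries of that strain was not the same for both genes. Over all tested genes hs::lin-29 replicate 1 was the lowest of its strain in 35.6%. In the annotation exons of grl-14 overlap those of sbt-1 on the other strand. sbt-1 averaged 218 ± 28.1 CPM in hs::lin-29 and 203 ± 17.2 CPM in hs::control (SD, n = 3 each; edgeR adjusted p 0.7435).

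The groundhog gene grd-11 had a much lower level. It stood at 7.14, 7.34 and 8.08 CPM in hs::lin-29, against 1.64, 0.823 and 2.24 CPM in hs::control. The hs::lin-29 libraries lay close together and all above hs::control, where replicate 2 was the lowest. The log2 fold change was 2.26 (SE 0.30, edgeR adjusted p 0.002949). It rested on 15 to 133 counts per library, and over the left-out libraries it ran between 1.92 and 2.63, always past the threshold. Exons of grd-11 overlap those of K02E2.8 on the other strand, a gene at 5.58 ± 1.24 CPM in hs::lin-29 and 6.27 ± 1.36 CPM in hs::control (SD, n = 3 each; edgeR adjusted p 0.8071).

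The warthog gene wrt-6 was the most abundant of the genes that rose. It stood at 134, 157 and 180 CPM in hs::lin-29, against 80.2, 45.7 and 51.0 CPM in hs::control. The groups did not overlap, and the highest hs::control value was in replicate 1. The log2 fold change was 1.42 (SE 0.21, edgeR adjusted p 0.004683), and 1.70 with that library left out. No other annotated gene overlaps wrt-6.

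The ground-like gene grl-21 moved the other way. It stood at 48.2, 48.2 and 45.1 CPM in hs::lin-29, against 79.9, 96.5 and 64.2 CPM in hs::control. The hs::lin-29 libraries were nearly equal, and the spread was in hs::control, where replicate 2 was the highest. The log2 fold change was -0.77 (SE 0.14, edgeR adjusted p 0.01312). With hs::lin-29 replicate 3 left out the call was lost (edgeR adjusted p 0.0527; 9.748e-06 to 0.05273 across alternatives).

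The patched-related gene ptr-15, the only receptor-like gene to pass, stood at 16.44, 19.4 and 17.7 CPM in hs::lin-29, against 31.1, 24.4 and 27.7 CPM in hs::control. The groups did not overlap, and hs::control replicate 2 came nearest to hs::lin-29. The log2 fold change was -0.63 (SE 0.13, edgeR adjusted p 0.01859). The call was lost with replicate 3 of hs::lin-29 left out (edgeR adjusted p 0.0668) or replicate 3 of hs::control (0.0730), with log2 fold changes of -0.63 and -0.64, and alternatives spanned 0.001118 to 0.07304. Exons of ptr-15 overlap those of mec-1 on the other strand, which is listed at 0 in every library.

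**Figure D2:**
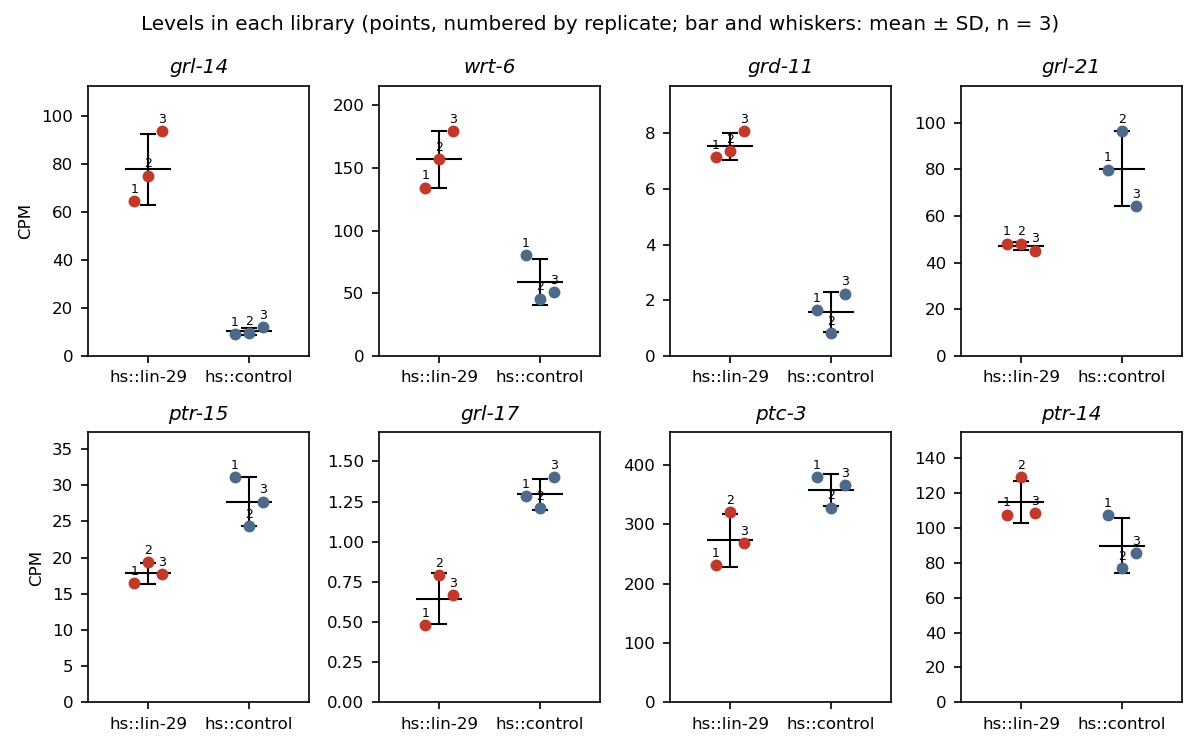
CPM in each library (y axis, from 0) of the 5 genes past the threshold and of grl-17, ptc-3 and ptr-14, with hs::lin-29 left of hs::control; points are libraries numbered by replicate, and bars and whiskers are the mean ± SD of 3. In all 8 panels the libraries of one strain lie entirely above those of the other, with the widest gap in proportion for grl-14.

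Beyond these 5 genes, grl-17, ptc-3 and ptr-14 had an unadjusted p under 0.05 and groups that did not overlap. Over all tested genes 16.3% met both conditions. ptc-3, a patched homologue with a role in water balance, stood at 232, 320 and 268 CPM in hs::lin-29, against 379, 328 and 366 CPM in hs::control (log2 fold change -0.39, SE 0.13, edgeR adjusted p 0.1445). Its strains came close in replicate 2 of each. With no filter on low counts its edgeR adjusted p was 0.0432, and alternatives spanned 0.0432 to 0.331.

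ptr-14 stood at 107.4, 129 and 108 CPM in hs::lin-29, against 107.0, 76.8 and 85.5 CPM in hs::control (log2 fold change 0.36, SE 0.14, edgeR adjusted p 0.2006). Its lowest hs::lin-29 and highest hs::control values were almost equal. With hs::control replicate 1 left out its edgeR adjusted p was 0.0402 and with no filter 0.0399 (0.03994 to 0.5012 across alternatives). grl-17 was near the limit of counting, at 0.480, 0.792 and 0.668 CPM in hs::lin-29 and 1.28, 1.21 and 1.40 CPM in hs::control, from 8 to 25 counts per library (log2 fold change -1.005, SE 0.35, edgeR adjusted p 0.1502).

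Counting only the order of the libraries, 10 of the 66 genes (15.2%) had strains that did not overlap, against 23.2% of all tested genes. Of these, 5 were higher in hs::lin-29 and 5 lower, against 11.3% and 11.9% of all genes. The remaining 2 of the 10 did not pass at an unadjusted p of 0.05 and are named after their values were seen: grd-16 (log2 fold change 0.38, SE 0.20) and wrt-3 (-0.24, SE 0.12).

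Other receptor-like genes passed only when 1 library was left out, and are named here after their values were seen. ptr-3 stood at 31.3, 16.6 and 21.5 CPM in hs::lin-29, against 36.04, 29.5 and 34.1 CPM in hs::control. In hs::lin-29 replicate 1 it was within the range of hs::control, and in the other hs::lin-29 libraries it was below every hs::control library. Its log2 fold change was -0.52 (SE 0.21, edgeR adjusted p 0.2212), and -0.81 with hs::lin-29 replicate 1 left out (edgeR adjusted p 0.0216; 0.02162 to 0.4581 across alternatives).

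ptr-13 had the same order of libraries in hs::lin-29, at 59.2, 37.6 and 45.0 CPM, against 62.2, 64.2 and 55.1 CPM in hs::control. Its log2 fold change was -0.35 (SE 0.16, edgeR adjusted p 0.2767), and -0.56 with the same library left out (edgeR adjusted p 0.0343; 0.03427 to 0.5788 across alternatives). ptr-16 stood at 48.8, 52.5 and 48.8 CPM in hs::lin-29, against 69.3, 46.7 and 68.5 CPM in hs::control, where replicate 2 alone was low. Without hs::control replicate 2 its log2 fold change was -0.47 in place of -0.30, with an edgeR adjusted p of 0.0358 (0.03585 to 0.6654 across alternatives).

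Among the ligand-like genes wrt-4 did so, at 70.8, 82.6 and 82.4 CPM in hs::lin-29, against 91.8, 42.6 and 53.6 CPM in hs::control. Its highest value of all was in hs::control replicate 1. Without that library its log2 fold change was 0.71 in place of 0.33, with an edgeR adjusted p of 0.0134 (0.01342 to 0.9188 across alternatives). The number of receptor-like genes lower in hs::lin-29 was thus 3 without hs::lin-29 replicate 1 and 2 without hs::control replicate 2. It was 0 without either of the replicates numbered 3. Over all genes 528 of 13404 passed as lower without hs::lin-29 replicate 1 and 328 of 13241 without hs::control replicate 2. Without hs::lin-29 replicate 3 it was 337 of 13334, and without hs::control replicate 3 it was 324 of 13263.

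The low-level gene ptr-22 had 1.14, 0.936 and 1.40 CPM in hs::lin-29, against 1.28, 4.44 and 1.96 CPM in hs::control. The strains overlapped, and hs::control replicate 2 alone was high (log2 fold change -1.15, SE 0.46, edgeR adjusted p 0.2244). It is named after its values were seen.

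**Figure D3:**
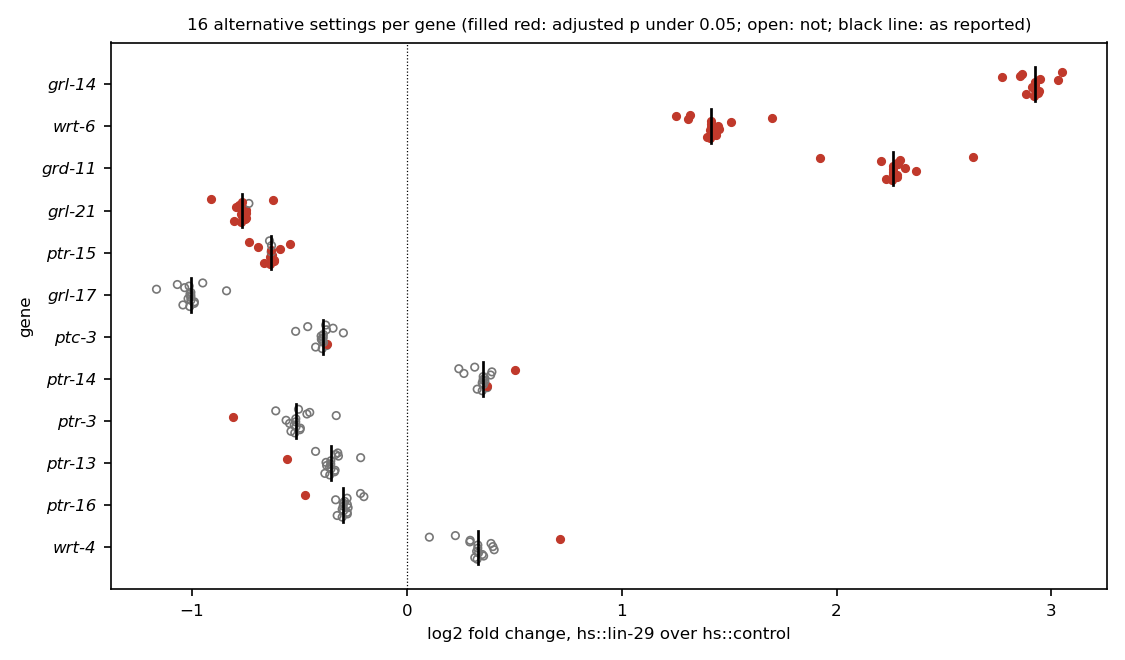
Log2 fold change of hs::lin-29 over hs::control (x axis) of 12 genes (y axis) under 16 alternative settings each, filled red where the adjusted p was under 0.05 and open where not; the black line is the value as reported. All points are filled for grl-14, wrt-6 and grd-11, and no gene crosses 0.

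In each subfamily but hog the gene with the highest mean CPM was tested and did not pass. hog-1, the only gene of its subfamily, was not tested. qua-1, a gene needed for molting, stood at 657, 891 and 809 CPM in hs::lin-29, against 890.1, 665 and 862 CPM in hs::control (log2 fold change -0.04, SE 0.15). The ground-like gene grl-16 stood at 1103, 857 and 653 CPM in hs::lin-29, against 742, 511 and 691 CPM in hs::control (0.43, SE 0.21, edgeR adjusted p 0.3269). Its strains overlapped, and hs::lin-29 replicate 3 was below 2 of the hs::control libraries.

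The groundhog gene grd-10 stood at 254, 169 and 239 CPM in hs::lin-29, against 198, 291 and 241 CPM in hs::control (log2 fold change -0.14, SE 0.18). The warthog gene wrt-10 stood at 172, 230.0 and 310 CPM in hs::lin-29, against 172, 220 and 230.0 CPM in hs::control (0.20, SE 0.20). ptr-23 stood at 237, 163 and 134 CPM in hs::lin-29, against 201, 168 and 211 CPM in hs::control (-0.12, SE 0.20). In grd-10, wrt-10 and ptr-23 the strains overlapped, and leaving out 1 library turned the sign of each value and of that of qua-1. The highest ptc gene was ptc-3, described above.

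Levels were compared between genes per kb of annotated exon, as mean ± SD CPM per kb over 3 libraries. The highest were ligand-like. grl-16 had 518 ± 134 CPM per kb in hs::lin-29 and 386 ± 72.1 in hs::control, and grl-4 had 405 ± 95.7 in hs::lin-29 and 483 ± 45.6 in hs::control. The groundhog genes grd-10, grd-13, grd-5, grd-14 and grd-3 lay between 264 and 348 CPM per kb in hs::lin-29 and between 226 and 384 in hs::control. Among them grd-10, grd-3 and grd-13 are consecutive protein-coding genes on chromosome IV, and none of the trio passed the test.

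qua-1 had 204 ± 30.8 CPM per kb in hs::lin-29 and 209 ± 31.8 in hs::control, close to wrt-10 at 211 ± 61.5 in hs::lin-29 and 184 ± 27.3 in hs::control. The receptor-like genes reached lower levels. ptc-3 was the highest, at 61.3 ± 9.96 CPM per kb in hs::lin-29 and 80.3 ± 5.96 in hs::control. Next came ptr-4, known for a role in the apical matrix, ptr-18 and ptr-23, all between 51.9 and 54.01 in hs::lin-29 and between 56.4 and 63.8 in hs::control, which do not differ beyond their SD in hs::lin-29. ptc-1, needed for division of germ cells, had 39.7 ± 2.56 in hs::lin-29 and 41.7 ± 1.01 in hs::control. Of the receptor-like genes with a length 11 of 25 have at least 2 annotated transcripts, against 10 of 56 ligand-like genes. Whether this, or the use of lengths from another build, bears on the difference in level was not tested.

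On this scale grl-14 had 51.2 ± 9.73 CPM per kb in hs::lin-29 and 6.73 ± 1.01 in hs::control. wrt-6 had 79.7 ± 11.5 in hs::lin-29 and 30.0 ± 9.44 in hs::control. grd-11 had 2.40 ± 0.157 in hs::lin-29 and 0.500 ± 0.227 in hs::control, so that it remained one of the lower genes of its subfamily in both strains. grl-21 had 69.9 ± 2.61 in hs::lin-29 and 119 ± 23.9 in hs::control, and ptr-15 had 6.85 ± 0.561 in hs::lin-29 and 10.6 ± 1.29 in hs::control.

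**Figure D4:**
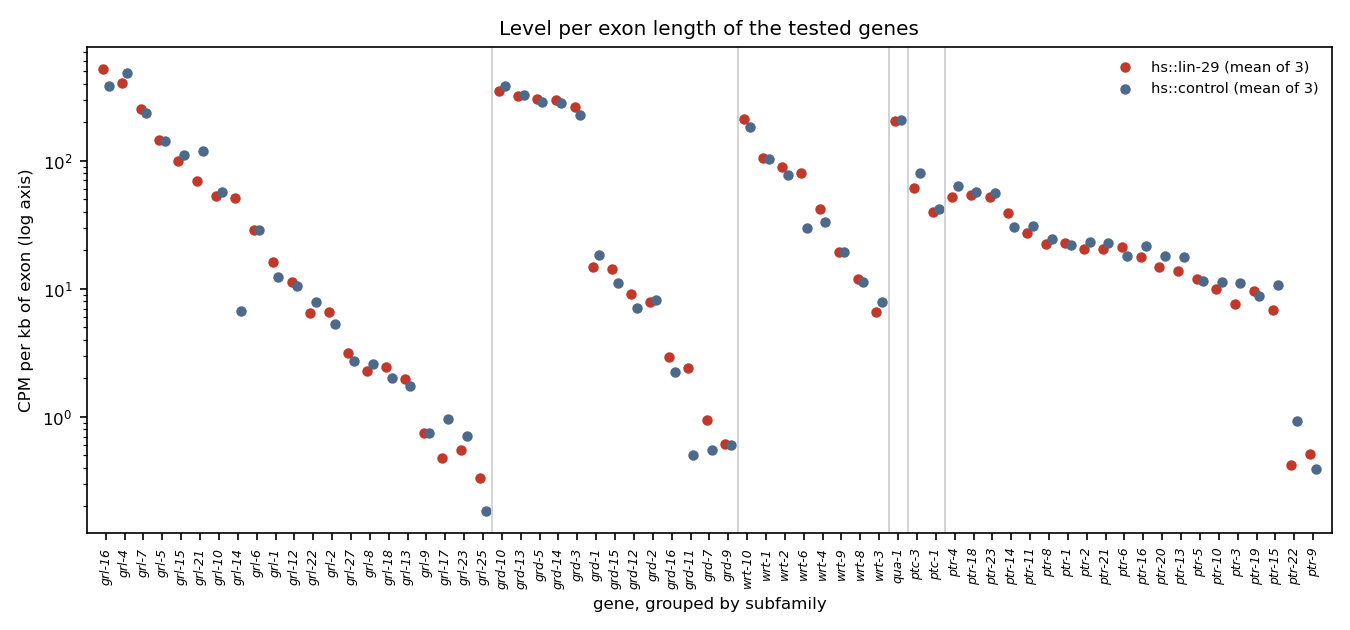
Mean CPM per kb of exon (log axis) of the 65 tested genes with an annotated length (x axis, by subfamily and level), hs::lin-29 in red and hs::control in blue, 3 libraries each. The grl and grd genes span the widest range, and grl-14, grd-11 and wrt-6 show the widest gaps with red above blue.

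By mean CPM over all 6 libraries 46 of the 66 tested genes had 10 CPM or more, 15 had between 1 and 10 and 5 had under 1. All 8 tested wrt genes and 18 of 20 ptr genes reached 10 CPM, against 10 of 21 grl and 7 of 13 grd genes. Low grl genes included grl-18, a gene used to mark glia of the lip sensory organs, at 3.45 ± 0.309 CPM in hs::lin-29 and 2.81 ± 0.693 CPM in hs::control. grl-2, expressed in the excretory duct and pore, had 8.38 ± 0.333 CPM in hs::lin-29 and 6.80 ± 1.65 CPM in hs::control. ptr-10, whose promoter is used to label glia, had 29.4 ± 6.32 CPM in hs::lin-29 and 33.2 ± 4.08 CPM in hs::control.

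The summed level of the 56 ligand-like genes was 4782, 4703 and 4579 CPM in hs::lin-29, against 4743, 3831 and 4388 CPM in hs::control. That of the 26 receptor-like genes was 1729, 1931 and 1673 CPM in hs::lin-29, against 2129, 1819 and 1998 CPM in hs::control. Both sums overlapped between the strains. The sum of the ptc genes did not, at 430, 537 and 460 CPM in hs::lin-29 against 597, 537 and 577 CPM in hs::control, with hs::lin-29 replicate 2 and hs::control replicate 2 differing by less than 1 CPM.

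Libraries of 1 strain differed in many of these genes. Over the 46 genes with a mean of 10 CPM or more, hs::lin-29 replicate 1 was the highest of its strain in 18 and the lowest in 25, and the median in 3. Its ratio to the mean of the other hs::lin-29 libraries ran between 0.596 for wrt-2 and 1.70 for grl-1. Genes high in that library were grl-1, ptr-3, ptr-23, grd-14, grl-4 and grl-16, with ratios of 1.46 or more. Genes low in it were wrt-2, ptr-4, wrt-10, ptr-10, grl-10 and wrt-1, with ratios of 0.698 or less. Over the 66 tested genes this library was the highest in 43.9% and the lowest in 43.9%, against 36.85% and 35.6% of all tested genes. It was either in 93.0% of the 43 ligand-like and 78.3% of the 23 receptor-like genes tested, against 72.4% of all. For hs::lin-29 replicate 2 these shares were 48.8%, 82.6% and 64.6%.

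In hs::control replicate 1 was the highest in 32 of the same 46 genes and replicate 2 the lowest in 31. Over the 66 tested genes of the families these shares were 59.1% and 65.2%, against 41.9% and 33.5% of all tested genes. The ratio of replicate 1 to the mean of the other hs::control libraries reached 1.91 for wrt-4, 1.68 for grl-7, 1.66 for wrt-6 and 1.61 for grl-15. grl-7 stood at 270.0, 348 and 290.1 CPM in hs::lin-29, against 380.2, 196 and 257 CPM in hs::control, so that both extremes lay in hs::control. The median coefficient of variation of the 46 genes was 15.8% in hs::lin-29 and 12.58% in hs::control. The smallest in hs::lin-29 was that of ptr-5 (1.91%), at 42.4, 41.0 and 41.1 CPM in hs::lin-29, against 37.6, 38.5 and 43.3 CPM in hs::control.

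Molting genes of another list, with none of the genes described here, summed to 2779, 3947 and 3774 CPM in hs::lin-29, against 3778, 3095 and 3688 CPM in hs::control, and of 17 tested nhr-25 alone rose. The lowest sums were thus in hs::lin-29 replicate 1 and hs::control replicate 2, and qua-1 was lowest in the same libraries. Of the genes named above as low in hs::lin-29 replicate 1, wrt-1, wrt-2 and ptr-4 were also lowest in hs::control replicate 2. In hs::control wrt-10 and ptr-10 were lowest in replicate 1 instead, and grl-10 in replicate 3. Heat shock genes summed to 21370, 30020 and 23260 CPM in hs::lin-29, against 33670, 24950 and 22870 CPM in hs::control, and of 17 tested hsp-17 alone rose. Whether stage or the heat response had a part in the spread of these genes was not tested.

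**Figure D5:**
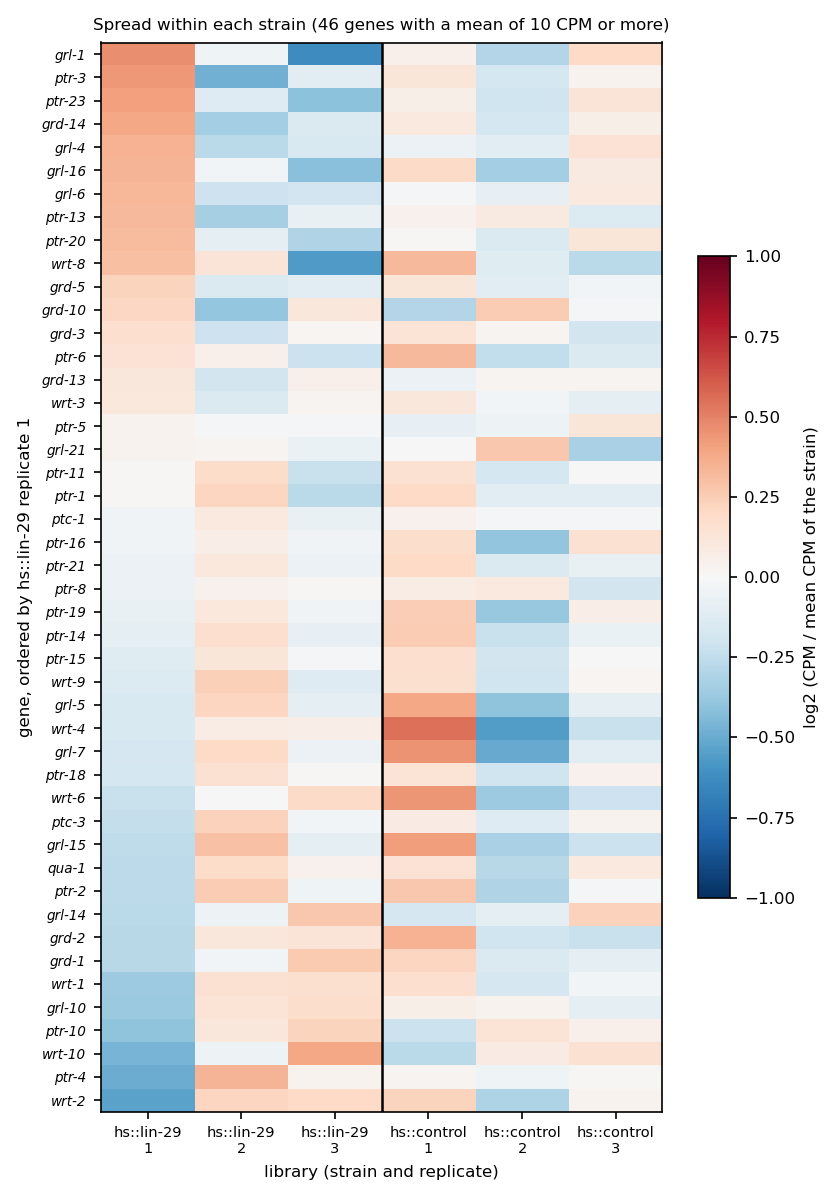
Log2 ratio of each library's CPM to the mean of its strain (colour) for the 46 genes with a mean of 10 CPM or more (y axis) in the 6 libraries (x axis), ordered by hs::lin-29 replicate 1. The first column runs from red at the top (grl-1) to blue at the bottom (wrt-2), and hs::control replicates 1 and 2 are mostly opposite in colour.

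Cell type markers were set beside these results. Of 6 tested genes on a list of hypodermis markers 2 rose. They were the nuclear receptor gene nhr-25, the same gene that rose in the molting list, and the fusogen gene aff-1. Whether nhr-25 and aff-1 mark the hypodermis alone was not tested. The other 4 did not pass, with log2 fold changes of 0.28 for lin-26, 0.44 for dpy-13, 0.07 for lin-39 and -0.36 for dpy-7. The summed level of the list was 4920 to 5622 CPM in hs::lin-29 and 3264 to 4578 CPM in hs::control. Most of it was the collagen gene dpy-13, at 4790 ± 421 CPM in hs::lin-29 and 3529 ± 665 CPM in hs::control (SD, n = 3 each). Of the 10 listed, elt-1, elt-3 and eff-1 are at 0 in every library. Without its collagens, a sum added after the values were seen, the list came to 168 to 198 CPM in hs::lin-29 and 115 to 154 CPM in hs::control.

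Of 8 tested genes on a list of seam cell markers elo-5 alone fell (log2 fold change -1.12, edgeR adjusted p 0.01011). It averaged 45.2 ± 7.38 CPM in hs::lin-29 and 98.3 ± 26.6 CPM in hs::control (SD, n = 3 each). Whether elo-5 marks seam cells in these larvae was not tested. The list summed to 106 to 119 CPM in hs::lin-29 and 149 to 191 CPM in hs::control. A sum without elo-5, added after the values were seen, was 65.9 to 67.9 CPM in hs::lin-29 and 63.2 to 84.8 CPM in hs::control. Most of the sum without elo-5 came from egl-18 and elt-6, at 31.2 ± 3.32 and 18.1 ± 2.24 CPM in hs::lin-29 and 33.5 ± 3.62 and 18.9 ± 6.25 CPM in hs::control (SD, n = 3 each). Among the less abundant seam markers the strains did not overlap for ceh-16 (log2 fold change -0.94, edgeR adjusted p 0.1221), bro-1 (-0.69, 0.1008), lin-22 (-0.51, 0.2586) and rnt-1 (0.60, 0.1895), none of which passed. They did not overlap for elo-5 either, and overlapped for egl-18, elt-6 and nhr-73. Over all tested genes 23.2% had strains that did not overlap. The median log2 fold change of the 8 tested seam markers was -0.31. Of the 5 glia, 7 neuron, 4 muscle, 7 pharynx and 7 germline markers tested none passed, and their sums overlapped between the strains. The glia markers summed to 153 to 175 CPM in hs::lin-29 and 154 to 171 CPM in hs::control. Of 11 intestine markers tested elt-2 alone rose, and the list summed to 6237 to 7523 CPM in hs::lin-29 and 6552 to 8385 CPM in hs::control. The part of cell composition in the changes of grl-14, grd-11, wrt-6, grl-21 and ptr-15 was not tested.

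Other genes tied to this pathway by homology were listed apart. Of 13 listed, 9 were tested, with a median log2 fold change of -0.07, and 1 fell and none rose. It was ncr-1, a homologue of the Niemann-Pick type C cholesterol transporter with the same sterol-sensing domain. ncr-1 stood at 50.6, 59.0 and 44.6 CPM in hs::lin-29, against 75.9, 70.6 and 70.1 CPM in hs::control. The groups did not overlap (log2 fold change -0.49, SE 0.11, edgeR adjusted p 0.03591). The call was lost without each library other than hs::lin-29 replicate 2, at edgeR adjusted p values up to 0.123 (0.003258 to 0.1229 across alternatives).

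phg-1, a homologue of the Hedgehog-binding protein GAS1, stood at 205, 178 and 134 CPM in hs::lin-29, against 137, 103 and 128 CPM in hs::control. The strains overlapped (log2 fold change 0.49, SE 0.17, edgeR adjusted p 0.1457), and with no filter on low counts its edgeR adjusted p was 0.0393 (0.03928 to 0.4012 across alternatives). The remaining 7 did not pass. Their log2 fold changes were 0.03 for che-14, a Dispatched relative of apical secretion, -0.26 for the patched-domain gene ptd-2, -0.09 for daf-6, which shapes glial channels, and 0.32 for ncr-2. They were -0.07 and -0.08 for the acyltransferase genes hhat-1 and hhat-2 and 0.03 for the megalin relative lrp-1.

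tra-1, the worm's Gli-family transcription factor gene of sex determination, had 1 to 10 counts per library and was not tested. tra-2, her-1 and scp-1 are listed at 0 in every library. Of the hedgehog-related and patched-related genes 16 were not tested. hog-1, ptr-12, ptr-17 and ptr-24 are listed at 0 in every library, and 3 of these 4 have at least 2 annotated transcripts. Of all protein-coding names matched, 26.9% of those with at least 2 annotated transcripts and 5.30% of those with 1 are listed at 0, so no absence is read from a listed 0.

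The other 12 had at most 9 counts in any library, namely grd-8, wrt-5, wrt-7, grl-3, grl-11, grl-19, grl-20, grl-26, grl-28, grl-29, grl-30 and grl-31. With no filter on low counts they were tested as well. The 7 of 78 genes past the threshold by edgeR were the 5 described, ptc-3 and ptr-14. Over all genes at that setting 1151 of 24215 passed. grl-29, grl-30 and grl-31 are neighbours on chromosome V and had at most 2 counts each.

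Some features of the genes were not used by the naming rule. Of the 81 found in the annotation, 31 (38.3%) lie on chromosome V, against 26.0% of protein-coding genes, and 19 of these are grl genes. The higher share was that of the ligand-like genes, with 27 of 56 on chromosome V, against 4 of 25 receptor-like genes. The 3 genes that rose are on chromosomes V (grl-14 and grd-11) and X (wrt-6), grl-21 is on IV and ptr-15 on V. Ligand-like genes had a median exon length of 1.05 kb and receptor-like genes of 2.99 kb. Exons of 23 genes overlap those of a protein-coding gene, which bears on counts if strand was ignored. For grd-12 it bears on them in either case, since xbx-1 lies on the same strand. ptc-2 was not matched there and is a pseudogene in the RefSeq table.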

How the data were processed

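Read counts per gene were measured in 6 libraries of whole larvae, and the deposited values are raw counts made by the authors, not normalized, a table for each library. Per the submitters' processing notes, STAR 2.5.2b, HTSeq 0.6.1p1 and bcl2fastq 2.18 were used with the build ce10, beside R 3.3.2 and DESeq2 1.12.3. The annotation release and whether strand was used in counting are not stated. Rows naming no gene took 39.7% to 41.8% of counts and were left out. The annotation used here (WBcel235) is another build, so it gave names, exon lengths, transcript numbers, overlaps and neighbours only. No sequences are shown.

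Genes were kept by filterByExpr (minimum count 10, total 15), scaled by TMM and tested over all genes with the quasi-likelihood F test of edgeR 4.0.16 (robust, two-sided, strain as the only term, Benjamini-Hochberg threshold 0.05). SE is the absolute log2 fold change over the square root of F. Alternatives were scalings, filters, DESeq2 1.42.0, limma-voom (limma 3.58.1), no robust estimation, a replicate block, the 20 most abundant genes left out and each library left out. No pair of replicates looked like 1 library deposited again (their counts gave a chi-square of at least 10.2 per degree of freedom). Genes named are those past the threshold, those with an unadjusted p under 0.05 and no overlap, and the highest by mean CPM of each subfamily; other members were named after their values were seen. The members and lists were chosen with earlier results of these data known.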

Additional observations from a re-analysis of the deposited data

How the results depend on the processing

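All 5 genes past the threshold kept their direction under the 16 alternatives, and grl-14, grd-11 and wrt-6 kept their call in each. Other scalings, DESeq2, limma-voom, no robust estimation, a filter of 1 CPM and leaving out the 20 most abundant genes called the same 5 genes. With no filter on low counts ptc-3 (log2 fold change -0.37) and ptr-14 (0.37) passed as well, giving 1 receptor-like gene higher and 2 lower, and 2 other pathway genes passed.

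Correlations of deviations were 0.0112, -0.361 and 0.238 between libraries with the same trial number, and -0.356 to 0.371 between those with differing numbers. With 3 libraries per strain they cannot settle whether trials were paired, so a replicate block was run as a check. In it 556 genes passed. The receptor-like count lower was 0, since ptr-15 was lost (log2 fold change -0.63, edgeR adjusted p 0.0698). The other pathway count was 0, since ncr-1 was lost (-0.50, edgeR adjusted p 0.0796). Leaving out 1 library at a time gave 459 to 894 genes, ligand-like genes 3 to 4 higher and 0 to 1 lower, receptor-like genes 0 to 1 higher and 0 to 3 lower, and 0 to 1 other pathway genes. The cause of these shifts was not tested.

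Log2 fold changes near 0 changed sign when 1 library was left out, with ranges of -0.17 to 0.0656 for qua-1, -0.27 to 0.0199 for grd-10, -0.0444 to 0.37 for wrt-10, -0.39 to 0.0489 for ptr-23, -0.0941 to 0.14 for che-14, -0.21 to 0.0228 for daf-6, -0.19 to 0.0027 for hhat-1 and -0.0558 to 0.15 for lrp-1. With library size alone che-14 was at -0.0091. Depth limits the low genes, such as grd-11 and grl-17.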
